A study of Solanum lycopersicum with 21 samples.

Results

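Leaves of wild-type tomato (Solanum lycopersicum, cultivar M82) that had recovered from 2 droughts were compared with leaves that had recovered from 1 drought. The 6 libraries of this comparison, 3 per group, were taken from 21 libraries in the series by their titles. They are replicates 1, 13 and 4 of recovery 1 and replicates 8, 11 and 9 of recovery 2. All 6 came from unsprayed wild-type plants, and per the labels the plants were 3 weeks old, without a word on which sampling that refers to. Drought was imposed by lifting plants out and setting them in vermiculite wetted with only 20 ml of water, and recovery is labelled as irrigated again. The plants of recovery 2 went through that cycle again. Irrigated wild-type plants (3 libraries), wild-type plants sprayed with the synthetic strigolactone GR24 5DS at 5 µM, 24 h before sampling (3 libraries), and M82 line 6936 served as background. In line 6936 the strigolactone synthesis gene CCD7 is silenced, which left 70 to 80% less strigolactone in its roots and exudates, and the line is called the depleted line here. It gave 3 irrigated, 3 recovery 1 and 3 recovery 2 libraries. Each library pooled at least 3 leaves, 1 per plant, and the labels name 5 plants per condition. The labels do not settle whether libraries of a group shared plants, so the p-values measure the spread between these libraries.

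Drought memory is the name for a changed response of a plant to dehydration after it has met dehydration before. In leaves it is studied through transcripts whose level after a repeated drought differs from that after the earlier one. Strigolactones are hormones made from carotenoids, known for restraining shoot branching and, in tomato, for their part in drought responses and stomatal closure. Recovery 1 carries the time label 31 and recovery 2 the time label 76, both without a unit. No irrigated wild-type library carries either label, since the irrigated plants have label 0. The number of droughts, the time of sampling, the age of the plant and the number of times it was lifted out therefore cannot be told apart. In whole leaves, fewer cells of a type and less RNA per cell also cannot be told apart.

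The table gives locus IDs without gene names, and none of them was found in the RefSeq gene table used here. The IDs described below therefore carry no function, and the leaf label could not be set against marker genes. The chromosome is read from the number after the Solyc prefix. At most 2 IDs in each direction are printed for a comparison, and the others are described by counts and ranges.

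Total counts in the 6 libraries ranged from 23326213 to 34798789, against 19267602 to 35433511 in all 21. The number of IDs with a count ranged from 22140 to 22481 in the 6 libraries, and the 20 most abundant IDs took 11.3% to 12.8% of the counts. In a principal component analysis of the 6 libraries, the first component held 46.7% of the variance. It placed recovery 1 replicates 1, 13 and 4 at -41, -54.8 and -35.3, and recovery 2 replicates 8, 11 and 9 at 17.2, 36.2 and 77.6. The groups did not overlap on it, and replicate 9 of recovery 2 stood farthest out. Spearman correlations across IDs were 0.974 to 0.985 within recovery 1, 0.975 to 0.986 within recovery 2, and 0.952 to 0.982 between the groups. Common biological coefficients of variation were 0.25 at recovery 1 and 0.268 at recovery 2, close to 0.236 in irrigated wild type and below 0.427 in the sprayed group.

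Few IDs passed the test between the recoveries. An ID was called when its Benjamini-Hochberg adjusted p in edgeR's quasi-likelihood test, fitted over all 21 libraries, was under 0.05. Of 20373 IDs tested, 62 were called, which is 0.304%. Of these, 18 were higher at recovery 2 (0.0884% of those tested) and 44 were lower (0.216%). The adjusted p of the called IDs lay between 0.023 and 0.0492, with a median of 0.0452. The absolute log2 fold change of the 62 had a median of 2.44 and ran from 0.66 to 9.62, while its median over all IDs tested was 0.28. At least 2-fold changes (1 on the log2 scale) were seen in 57 of the 62, and 15 of them reached 4 on that scale. In all 62 the 3 libraries of one group lay wholly above the 3 of the other, as they did in 5486 IDs of all tested, or 26.9%. Counted over all IDs tested, called or not, 2336 (11.5%) were wholly higher and 3150 (15.5%) wholly lower at recovery 2. With 3 libraries per group, such separation also arises in some IDs without any difference. At an unadjusted p under 0.05 there were 2895 IDs (14.2%), 1100 higher (5.4%) and 1795 lower (8.81%). The median log2 fold change of all IDs was -0.04.

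**Figure D1:**
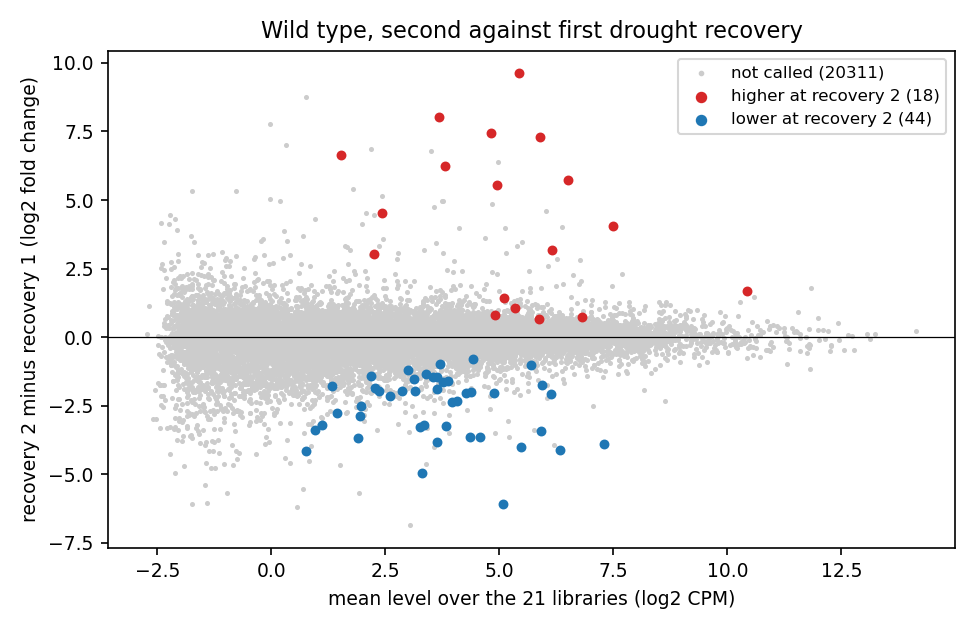
Log2 fold change of recovery 2 against recovery 1 in wild type (vertical axis) by mean level in log2 CPM (horizontal axis) for 20373 IDs. The 18 called IDs that were higher reach 9.62 and the 44 that were lower reach -6.07, while the median over all IDs is -0.04.

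The number of calls depended on single libraries. It was 5, 1 and 0 after leaving out replicates 1, 13 and 4 of recovery 1 in turn. After leaving out replicates 8, 11 and 9 of recovery 2 it was 143, 0 and 0, and the 143 comprised 71 higher and 72 lower IDs. In the fits with 0 edgeR calls, 3386, 2513 and 1678 IDs had an unadjusted p under 0.05 without replicates 4, 11 and 9. DESeq2 was run with all libraries and called 621. With the 6 libraries fitted alone 1 ID was called. The count also moved with libraries outside the comparison, which are part of the same fit. Leaving out 1 of the 6 recovery libraries of the depleted line at a time gave 3 to 77 wild-type calls. Of the 62, 54 were also called without replicate 8 of recovery 2, and 4, 1 and 0 without replicates 1, 13 and 4 of recovery 1.

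**Figure D2:**
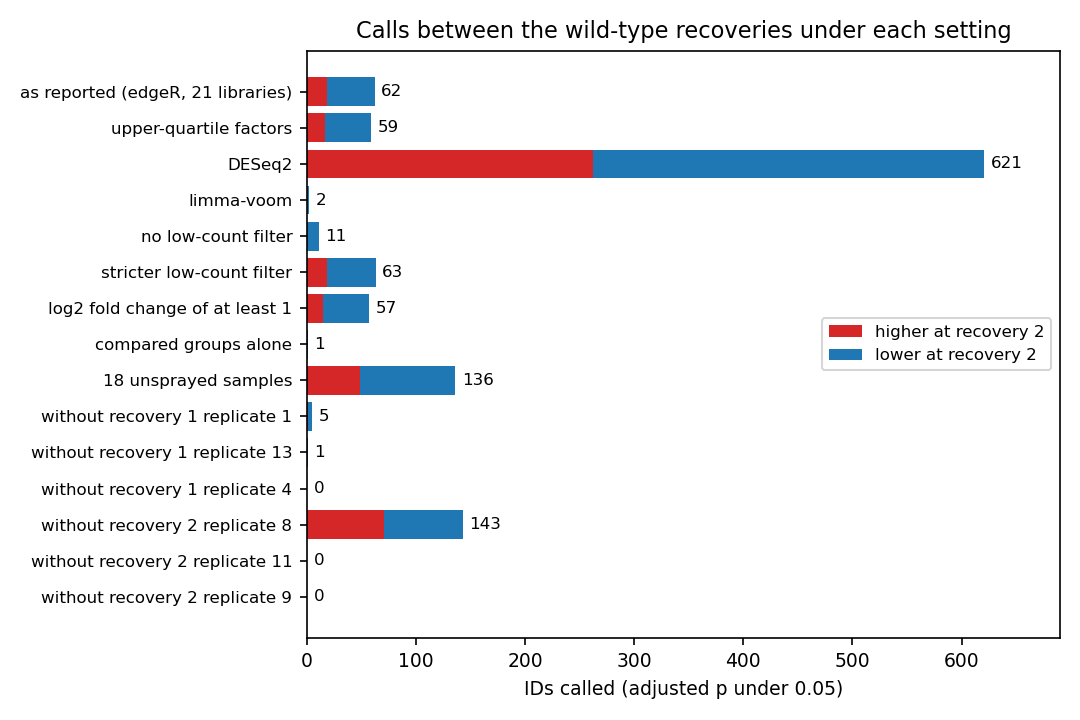
Number of IDs called between the wild-type recoveries (horizontal axis) under each setting (rows), split into higher and lower at recovery 2. The count is 62 as reported, 621 with DESeq2, 143 without recovery 2 replicate 8 and 0 without recovery 2 replicate 9.

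Among the 18 IDs that were higher at recovery 2, 8 were carried by 1 library. In these 8, replicate 9 held 86.1% to 98.7% of the CPM (counts relative to the TMM-scaled library total) summed over the group. Their levels in replicate 9 had a median of 722 CPM and ran from 48.9 to 2300. The medians were 12.4 CPM in replicate 11 and 2.09 CPM in replicate 8. In recovery 1 the medians were 1.66, 0.469 and 1.34 CPM in replicates 1, 13 and 4. All 3 libraries of recovery 2 were above all 3 of recovery 1 in each of the 8 IDs. Replicate 8 was 1.21 to 9.94 times as high as the highest library of recovery 1, with a median of 1.51. The median log2 fold change of the 8 was 6.99 with all libraries and 2.85 without replicate 9. In irrigated wild type the mean levels of the 8 had a median of 0.686 CPM, and in the depleted line at recovery 2 a median of 0.942 CPM. In sprayed wild type, without a drought, they had a median of 0.807 CPM and reached 95.9 CPM.

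The strong expression in 1 library was not limited to called IDs. Among 16865 IDs with a mean of at least 1 CPM at recovery 2, replicate 9 held at least 80% of the group's sum in 50. Replicates 8 and 11 did so in 16 and 3. At recovery 1 the numbers were 6, 1 and 3 of 17108 IDs for replicates 1, 13 and 4. Over the other 5 groups they ranged from 3 to 172, the latter in replicate 11 of the sprayed group. Replicate 9 thus had the most such IDs of the 6 libraries, though not of the series.

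Solyc11g020330.1, on chromosome 11, had the largest fold among the higher IDs and is one of those 8. Its level at recovery 1 was 0.538, 0.114 and 0.481 CPM in replicates 1, 13 and 4. At recovery 2 it was 1.25, 10 and 882 CPM in replicates 8, 11 and 9. The groups did not overlap, and within recovery 2 the level was low in replicate 8 and high in replicate 9. The log2 fold change was 9.62 ± 1.94 (SE), with an edgeR adjusted p of 0.0452. Without replicate 9 it was 3.89 with an adjusted p of 0.486. Replicates 1, 13 and 4 of recovery 1 left out in turn gave adjusted p of 0.134, 0.218 and 0.105, and replicate 11 of recovery 2 gave 0.0659. With all libraries, limma-voom gave a log2 fold change of 6.16 with an adjusted p of 0.446. DESeq2 gave no adjusted p for this ID. The ID was almost silent in irrigated wild type, at 0 to 0.198 CPM, where 3 counts in a library correspond to 0.0947 to 0.116 CPM. In the depleted line it lay between 0.255 and 1.03 CPM at recovery 2. In sprayed leaves it was 2.35, 0.0664 and 0.117 CPM in replicates 8, 9 and 11. Sprayed replicate 8 was thus above replicate 8 of recovery 2.

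The other 10 higher IDs were spread more evenly over the 3 libraries of recovery 2, where the highest library held 34.2% to 78.7% of the sum. Their median log2 fold change was 1.57 with all libraries and 1.23 without replicate 9. Median levels in recovery 1 were 21, 20.1 and 25 CPM in replicates 1, 13 and 4, and 42.1, 61.2 and 77.9 CPM in replicates 8, 11 and 9 of recovery 2. Replicate 9 was the highest recovery 2 library in 7 of the 10.

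Solyc10g005830.3, on chromosome 10, had the smallest p among the higher IDs and is one of these 10. Its level was 19.2, 27.7 and 27.2 CPM in replicates 1, 13 and 4 of recovery 1, and 43.7, 41.3 and 42.8 CPM in replicates 8, 11 and 9 of recovery 2. The 3 values of recovery 2 lay close together and above every other library of the series, of which the highest was an irrigated library of the depleted line at 34.9 CPM. The mean was 24.7 ± 4.79 CPM at recovery 1 and 42.6 ± 1.22 CPM at recovery 2 (SD, n = 3), which is 1.73-fold higher. On the log2 scale the ID rose by 0.79 ± 0.14 (SE), at an edgeR adjusted p of 0.0452. The log2 fold change stayed between 0.64 and 0.88 when each library was left out. The call was lost without replicates 1, 13 and 4 of recovery 1 (adjusted p = 0.107, 0.117 and 0.0643) and without replicates 11 and 9 of recovery 2 (0.0915 and 0.329). Irrigated wild type stood at 27.7 ± 3.53 CPM and the sprayed group at 25.4 ± 0.731 CPM (SD, n = 3).

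The 44 IDs that were lower at recovery 2 showed a more even pattern over the recovery 2 libraries. In 2 of the 44, 1 library held at least 80% of the recovery 2 sum. These IDs are low at recovery 2, whereas the higher IDs are high there, so the shares are not alike. The same share at recovery 1 is not given here. At recovery 1 the coefficients of variation of the 44 had a median of 27.1% and reached 123%. Their mean levels had a median of 10.9 CPM at recovery 1 and 2 CPM at recovery 2, with a range of 0.074 to 39.2 CPM at recovery 2. Their median log2 fold change was -2.13 with all libraries and -2.02 without replicate 9. Replicate 8 was the highest of the recovery 2 libraries in 37 of the 44, while replicate 9 was the lowest in 22 and replicate 11 in 20. The fall was thus smallest in replicate 8 for most of these IDs, the library that lay nearest to recovery 1 on the first component.

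Solyc02g084410.3, on chromosome 2, had the smallest p among the lower IDs. Its level was 71.2, 92 and 51.3 CPM in replicates 1, 13 and 4 of recovery 1, and 7.63, 5.46 and 6.82 CPM in replicates 8, 11 and 9 of recovery 2. All 3 libraries of recovery 2 were low, and the groups were far apart. The means were 71.5 ± 20.4 and 6.64 ± 1.09 CPM (SD, n = 3), a 10.8-fold difference. The fitted log2 value was -3.43 ± 0.49 (SE), and the edgeR adjusted p was 0.023. The log2 fold change stayed between -3.62 and -3.2 when each library was left out. The adjusted p was 0.1 without replicate 13 and 0.0535 without replicate 4 of recovery 1, and 0.0659 and 0.165 without replicates 11 and 9 of recovery 2. Irrigated wild-type libraries stood at 186, 153 and 42 CPM in replicates 6, 7 and 14, so replicate 14 lay below all of recovery 1. Sprayed leaves, without a drought, were also low, at 6.17, 16.2 and 18.5 CPM in replicates 8, 9 and 11. Sprayed replicate 8 thus lay within the range of recovery 2, so the low level was not limited to leaves after 2 droughts. Solyc02g084410.3 was the called ID of the edgeR fit to the 6 libraries alone, with an adjusted p of 0.0345.

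Solyc05g045670.3, on chromosome 5, had the largest fold among the lower IDs. Its level was 91.3, 87.1 and 20.9 CPM in replicates 1, 13 and 4 of recovery 1. In replicates 8, 11 and 9 of recovery 2 it was 1.06, 1.64 and 0.327 CPM. The lowest library of recovery 1 was still well above the highest of recovery 2. The ID fell by 6.07 ± 1.25 on the log2 scale (SE), at an edgeR adjusted p of 0.0485. Leaving out replicates 1, 13 and 4 of recovery 1 gave adjusted p of 0.119, 0.189 and 0.0643, and leaving out replicates 8, 11 and 9 of recovery 2 gave 0.0884, 0.125 and 0.363. Its level in irrigated wild type, 16.4 to 22.8 CPM, lay between the recoveries apart from replicate 4 of recovery 1. In sprayed leaves it varied from 2.45 to 230 CPM.

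**Figure D3:**
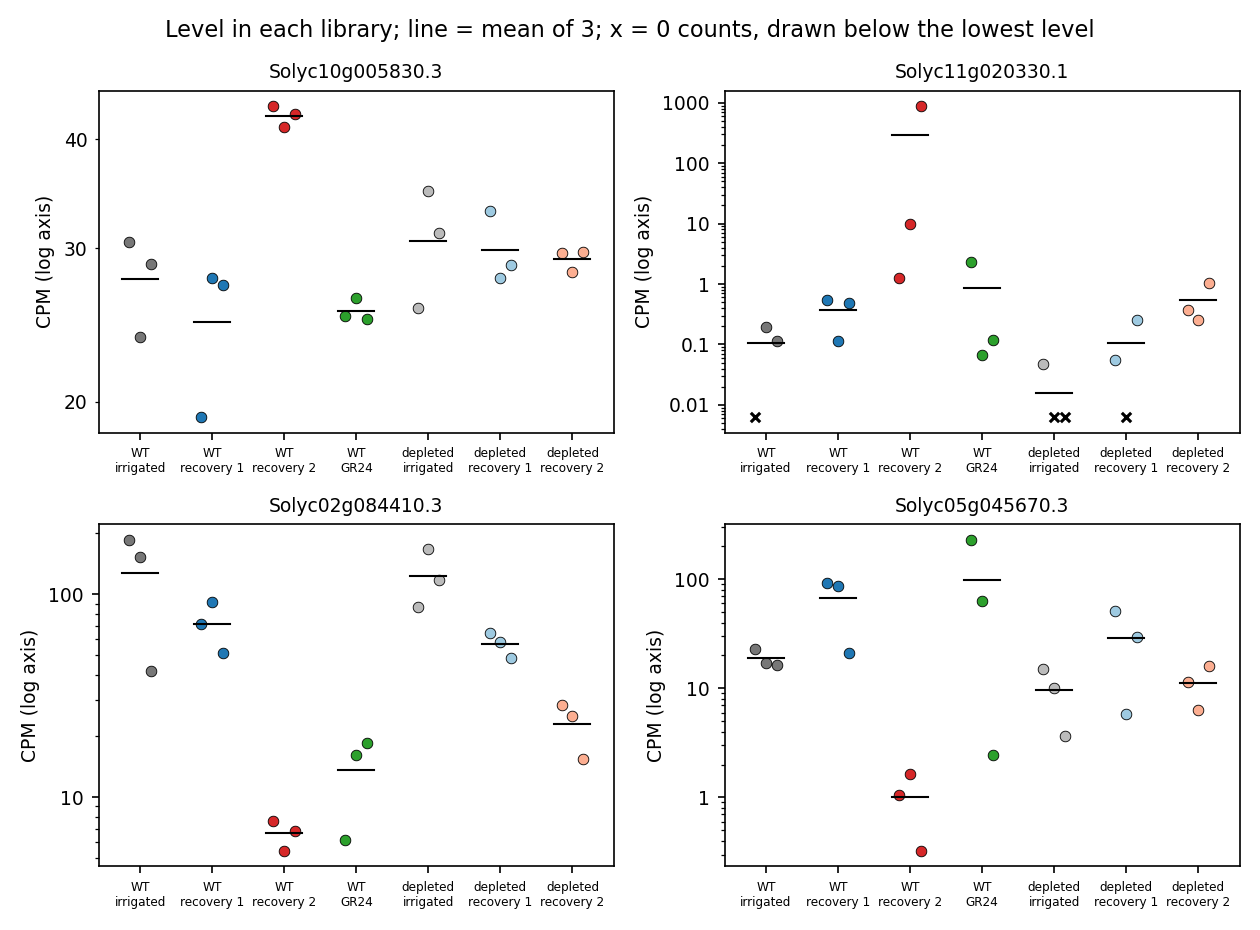
Level of the 4 printed IDs in each of the 21 libraries (CPM on a log axis), by group, with a line at the mean of 3 libraries and a cross for 0 counts. Solyc10g005830.3 is higher in all 3 recovery 2 libraries of the wild type, Solyc11g020330.1 reaches 882 CPM in 1 of them, and Solyc02g084410.3 and Solyc05g045670.3 are low in all 3.

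The irrigated libraries place these levels. For all 62 IDs the mean at recovery 2 lay outside the means of irrigated wild type and recovery 1, as it did for 79% of all IDs tested. Of the 44 lower IDs, 22 had their highest mean in irrigated leaves, then recovery 1, then recovery 2 (26.1% of all IDs tested). The other 22 had their highest mean at recovery 1, then irrigated leaves, then recovery 2 (17.3% of all). Of the 18 higher IDs, 11 had means in ascending order from irrigated to recovery 1 to recovery 2 (23.9% of all), and 7 from recovery 1 to irrigated to recovery 2 (11.7% of all). The choice of the IDs by a difference between the recoveries favours these orders. These comparisons share libraries, so each one's own values are set side by side. For the 44 the median log2 fold change was 0.01 for recovery 1 against irrigated, with a range of -1.57 to 1.82, and -1.74 for recovery 2 against irrigated. For the 18 the medians were 0.18 and 4.5. Over all IDs tested they were 0.02 and -0.04. For Solyc02g084410.3 the values were -0.83 ± 0.44 (SE, edgeR adjusted p = 0.76) and -4.26 ± 0.50 (adjusted p = 0.00307). For Solyc10g005830.3 they were -0.17 ± 0.14 (adjusted p = 0.853) and 0.62 ± 0.14 (adjusted p = 0.0238).

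Measured against the mean of recovery 1, the median of the 44 lower IDs stood at -1.68, -2.39 and -2.73 (log2 CPM) in replicates 8, 11 and 9 of recovery 2. In irrigated wild type it stood at 0.06 and 0.1 in replicates 6 and 7 but at -0.96 in replicate 14. In sprayed leaves it stood at -0.91, -0.33 and -0.37 in replicates 8, 9 and 11. The 18 higher IDs stood at 1.19, 3.23 and 4.99 in replicates 8, 11 and 9 of recovery 2, and between -0.44 and 0.03 in irrigated wild type. Over all IDs tested the medians lay between -0.04 and 0.02 in every library. The choice of the IDs sets the recovery 2 libraries of the wild type apart from recovery 1. For the lower IDs no library outside that group reached its 3 medians. For the higher IDs none reached those of its replicates 11 and 9, while replicate 8 of recovery 2 in the depleted line, at 1.3, stood beyond replicate 8 of the wild type.

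**Figure D4:**
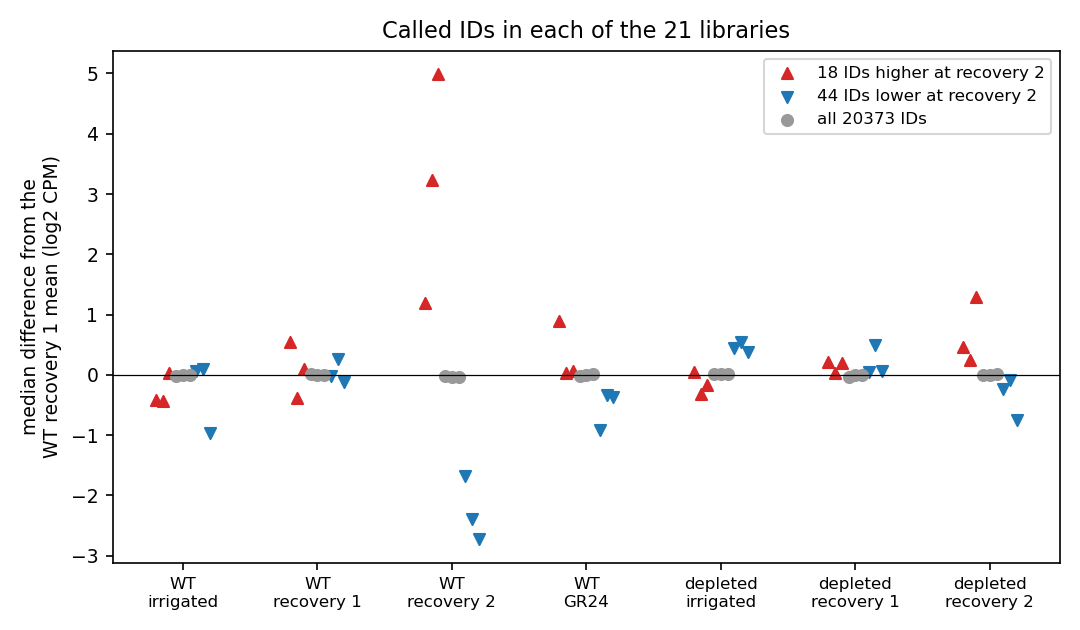
Median difference from the wild-type recovery 1 mean (vertical axis, log2 CPM) in each library, by group, for the 18 higher IDs, the 44 lower IDs and all 20373 IDs. Recovery 2 of the wild type spans 1.19 to 4.99 for the higher and -1.68 to -2.73 for the lower IDs, and recovery 2 of the depleted line 0.25 to 1.3 and -0.74 to -0.08.

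The depleted line went through the same droughts. Its libraries enter neither group of the wild-type contrast, but they are part of the fit that called the 62 IDs. The direction was the same there in 53 of the 62 IDs, or 85.5%, against 53% of all IDs tested. It was the same in 14 of the 18 higher and in 39 of the 44 lower IDs. The changes were smaller. The median log2 fold change of the 18 was 0.79 in the depleted line against 4.29 in the wild type, and that of the 44 was -0.4 against -2.13. In all 62 the absolute change was smaller in the depleted line, while it was smaller in 11287 of all IDs tested. Since the 62 were chosen for their change in the wild type, a smaller change elsewhere follows in part from the choice. All 3 recovery 2 libraries of the depleted line were above its recovery 1 libraries in 6 of the 18 (7.67% of all IDs tested), and below them in 12 of the 44 (5.7% of all).

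No ID passed the test between the recoveries of the depleted line by edgeR (0%), and 1749 IDs (8.58%) had an unadjusted p under 0.05, of which 11 were among the 62. Among the recovery 2 libraries of the depleted line, replicate 8 stood farther from wild-type recovery 1 than the others. Relative to the wild-type recovery 1 mean, this replicate had medians of 1.3 for the higher and -0.74 for the lower IDs. Replicates 13 and 11 had 0.47 and 0.25 for the higher and -0.23 and -0.08 for the lower. Without replicate 8 the direction was shared by 47 of the 62 (75.8%), against 48.9% of all IDs. Without replicate 12 of the depleted line's recovery 1 it was shared by 48 of the 62 (77.4%), against 53% of all IDs. Leaving out each of the 6 recovery libraries of the depleted line gave 47 to 56 of the 62. For Solyc02g084410.3, levels in the depleted line were 64.2, 58.4 and 48.4 CPM in replicates 16, 17 and 12 of recovery 1 and 28.4, 25.1 and 15.4 CPM in replicates 13, 11 and 8 of recovery 2. These groups did not overlap either, and the log2 difference was -1.31 ± 0.45 (SE), with an edgeR adjusted p of 0.501. Solyc10g005830.3 stood at 29.8 ± 2.85 and 29.2 ± 0.818 CPM there (SD, n = 3), with fully overlapping libraries.

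**Figure D5:**
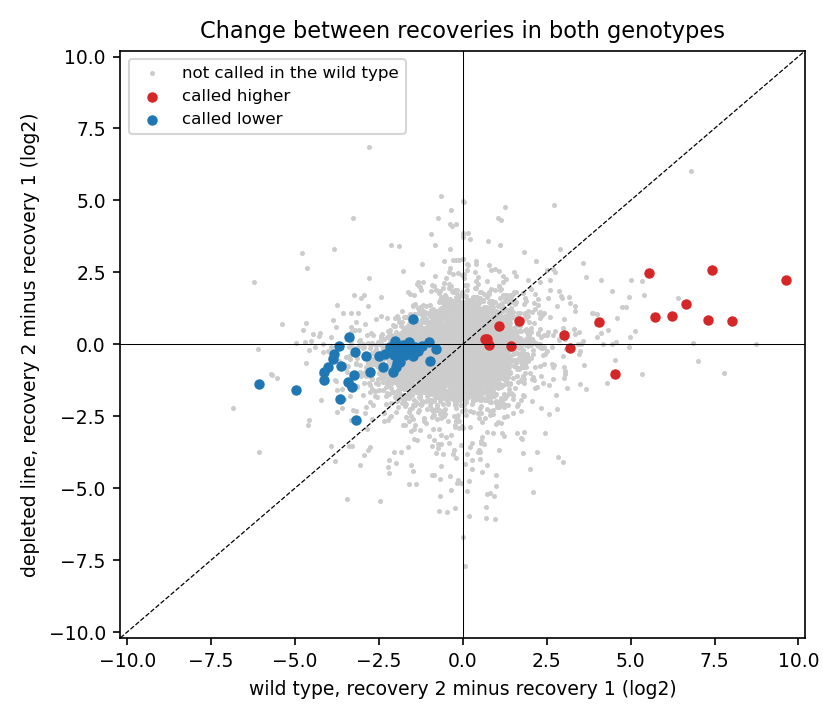
Log2 fold change of recovery 2 against recovery 1 in the depleted line (vertical axis) by that in the wild type (horizontal axis) for 20373 IDs, with equality as a dashed line. The called IDs have the same direction in 53 of 62, and all of them lie closer to 0 in the depleted line than in the wild type.

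Whether the change between the recoveries differed between the genotypes was tested as an interaction. By edgeR 0 IDs passed (0%), with a smallest adjusted p of 0.0825, while 2126 IDs (10.4%) lay under 0.05 before adjustment. DESeq2 called 64 IDs and limma-voom 0. Among the 62, 54 had an unadjusted edgeR p under 0.05, but the interaction contains the contrast that chose them. For Solyc02g084410.3 the interaction was -2.11 ± 0.63 (log2, SE, edgeR adjusted p = 0.371), and for Solyc10g005830.3 it was 0.82 ± 0.20 (adjusted p = 0.363). The smaller changes of the depleted line were therefore not shown by edgeR to differ from those of the wild type for any ID. The ID of smallest p, Solyc12g056930.2 on chromosome 12, was singled out after its values were seen. Its level in wild type was 15.1, 16.6 and 14 CPM in replicates 1, 13 and 4 of recovery 1 and 7.18, 4.12 and 5.16 CPM in replicates 8, 11 and 9 of recovery 2. In the depleted line it was 4.84, 7.43 and 4.99 CPM in replicates 16, 17 and 12 of recovery 1 and 9.13, 10.6 and 12.2 CPM in replicates 13, 11 and 8 of recovery 2. The libraries of the recoveries did not overlap in either genotype, and the directions were opposite. The log2 fold change was -1.47 ± 0.25 in the wild type (SE, edgeR adjusted p = 0.0423) and 0.89 ± 0.25 in the depleted line (adjusted p = 0.421). The interaction was -2.36 ± 0.36 with an edgeR adjusted p of 0.0825. Over the 12 fits that left out 1 library, the adjusted p ran from 0.044 to 0.401. Among these edgeR fits it was under 0.05 only without replicate 8 of wild-type recovery 2, and highest without replicate 11. With all libraries, the adjusted p of this ID was 1.69e-05 by DESeq2 and 0.197 by limma-voom, so its outcome depended on the method.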

How the data were processed

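The authors deposited a table of whole-number read counts per gene, not normalised. Reads were aligned with HISAT2 and counted with HTSeq, per the submitters' processing notes. The sources used here give no version, setting or genome build for these steps, and no rule for reads that match several genes. Libraries were made from 1 µg of RNA, per the labels' protocols. A further 6 columns match no sample and were not used. Of 35039 IDs, 0 were found among the 41476 genes of the RefSeq table (assembly SLM_r2.1), so the planned gene lists could not be run and no sequence is shown.

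Counts were tested with edgeR 4.0.16 (R 4.3.3), with filterByExpr on the 7 groups, which left 20373 IDs, TMM factors and 1 robust quasi-likelihood fit of 7 group means with 14 residual degrees of freedom. A standard error is the absolute log2 fold change over the root of F. Levels are CPM with TMM factors, and principal components used log2 CPM with a prior count of 2. Floors, set at 3 counts, cover counting error only, while the standard errors and SDs include the spread between libraries. Replicate pairs differed by 37.3 to 107 times sampling noise (chi-square per degree of freedom, IDs with at least 20 counts per pair), so each library counted once. The scripts were tested on simulated data. Printed IDs are, per direction, the called ID of smallest p and that of largest fold whose groups do not overlap and whose mean log2 CPM reaches 1. The ID of smallest p in the interaction is an exception. The limit of 80% of a group's sum was set after the data were seen. The comparison, the lists and the rules were chosen with earlier results of these data known. Alternatives were DESeq2 1.42.0, limma 3.58.1 (voom), other scaling and filters, fewer libraries, and a fit to the 18 unsprayed libraries that was added after the data were seen.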

Additional observations from a re-analysis of the deposited data

Results flagged for a closer look

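Solyc12g056930.2 was the ID of smallest p in the interaction. Its recovery 2 libraries all lay below its recovery 1 libraries in the wild type, and above them in the depleted line. Over all IDs tested, 15.5% were wholly lower in the wild type and 7.67% wholly higher in the depleted line. The share with both was not counted, so the pattern is not shown to be particular to this ID. Its interaction was -2.36 on the log2 scale (edgeR adjusted p = 0.0825), which misses the threshold. It ran from -2.6 to -2.2 over the edgeR fits that left out 1 library, with adjusted p of 0.044 to 0.401. The threshold was passed by DESeq2 (adjusted p = 1.69e-05) and missed by limma-voom (adjusted p = 0.197). Means were 15.2 ± 1.28 and 5.49 ± 1.55 CPM in the wild type and 5.75 ± 1.45 and 10.7 ± 1.55 CPM in the depleted line (SD, n = 3) at recoveries 1 and 2.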

How the results depend on the processing

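No paired analysis was possible because recovery 1 (replicates 1, 4 and 13) and recovery 2 (replicates 8, 9 and 11) share no replicate number. The gene lists could not be run. The 62 calls became 59 with upper-quartile factors, 63 with a stricter filter (1 CPM in 3 libraries) and 57 when a log2 change of 1 or more was also asked for. They became 621 with DESeq2 (262 higher, 359 lower), 2 with limma-voom, 11 without the low-count filter (0 higher, 11 lower), 1 with the compared groups alone and 136 with the 18 unsprayed libraries (49 higher, 87 lower). Leaving out each library gave 0 to 143. DESeq2 gave an adjusted p to 60 of the 62 IDs, Solyc11g020330.1 not among them, and called all 60. The unsprayed fit called 59 of the 62. The cause of these shifts was not tested. The share of wild-type calls with the same direction in the depleted line was 72.5% of the 621 with DESeq2 and 100% of the 2 with limma-voom, and 66.7% to 100% with each library left out, from as few as 1 call. The interaction count was 64 with DESeq2, 0 with limma-voom and 0 to 1 with each library left out. The first component held 46.7% of the variance, 47.6% with a prior count of 5 and 57.6% with the 1000 most variable IDs. No printed ID reversed, but calls were lost. With limma-voom the 4 IDs printed for the wild-type comparison had adjusted p of 0.0517 to 0.446, so none of them was called. Without the low-count filter, and with the compared groups alone, only Solyc02g084410.3 of these IDs kept its edgeR call. At this depth 3 counts correspond to 0.0818 to 0.111 CPM in the 6 libraries, and lower levels rest on fewer counts than that.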

Other observations

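The 62 called IDs lay on all 12 chromosomes, with 1 to 8 on each and 0.0737% to 0.542% of the IDs tested there called. Chromosome 9 had the most, 3 higher and 5 lower, and chromosome 11 the fewest, 1 higher. On chromosomes 5, 7 and 8 all called IDs were lower, 6, 5 and 3 in number. Of 67 tested IDs with the ENSRNA prefix, 0 were called.

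With the IDs divided by mean level over the series into 3 classes of 6791, the upper, middle and lower class held 22, 30 and 10 of the calls, or 0.324%, 0.442% and 0.147%. Of the 18 higher IDs 13 were in the upper class, and of the 44 lower IDs 26 were in the middle class. The mean level includes the recovery 2 libraries, so high values there also raise the class of an ID. Solyc11g020330.1, at 882 CPM in 1 library, has a mean of 5.43 log2 CPM.

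In 2 pairs the called IDs were at most 100 apart in locus number. The pair on chromosome 6 was 60 apart, and its log2 fold changes were 4.05 and 5.74. The pair on chromosome 7 was 35 apart, at -1.42 and -2. If such neighbours are near-identical copies, their counts are uncertain, which was not tested.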
